A study of Rattus norvegicus with 12 samples.

Results

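The genes described here are 51 liver-type plasma protein and apolipoprotein genes, a list of the best known proteins that the liver secretes into blood, measured in a pair of rat insulinoma cell lines. A member counted as measured where the array had a probe set annotated with that gene symbol alone. This held for 48 of the 51 genes, through 54 probe sets, out of 14218 genes and 31099 probe sets on the array. The other members were Cfb, whose 4 probe sets carry several symbols, Kng1, whose 1 probe set does so, and F7, for which no probe set was annotated.

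CRI-G1 is an insulin-secreting line derived from a transplantable tumour of rat pancreatic islets. CRI-G1-RR, the rotenone resistant line, is the original clone. CRI-G1-RS, the rotenone sensitive line, is a subclone that was isolated from it after a spontaneous change in culture, so each line stands for 1 clone and a difference between them is a difference between these clones. Total RNA from 6 passages of each line, grown without treatment in the same high glucose medium with serum, was hybridized to 1 Affymetrix Rat 230 2.0 array per sample (n = 6 RR and n = 6 RS).

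Most plasma proteins other than antibodies are made by hepatocytes, and their genes are read under the control of a small set of factors, among them the Hnf1, Hnf4a, Foxa, C/EBP and Stat3 families. They carry metals, haem, hormones and lipids, form the complement and clotting cascades, and hold the proteases of both in check. Several are acute-phase proteins, whose output changes with inflammation. Islet cells share part of this set of factors with the liver, and transthyretin and alpha-1-antitrypsin are known from islet cells as well.

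Values are linear signals in arbitrary array units, and a gene is represented by its probe set of highest mean signal. A log2 fold change is that of RS over RR cells on log2(signal + 16) after quantile normalization, so that it is negative where RS cells were lower and understates the change of a dim gene. Adjusted p-values are from limma, with Benjamini-Hochberg correction across the 31099 probe sets, and a gene was called at an adjusted p under 0.05. A mean signal of 50 was taken as the background level. Odorant receptor genes, which an islet line should not use, had a median signal of 45.4 over 18 probe sets, with a 95th percentile of 66.01 in RR cells and 84.98 in RS cells. Signals are compared between the lines for 1 probe set at a time, not between probe sets, except for sums over marker genes. The arrays of 1 line had Pearson correlations of 0.979 to 0.987 with each other, and those of different lines 0.952 to 0.965.

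Most of the genes gave no signal above background in either line. Of the 48 measured members, 32 (66.7%) had a mean of 50 or less in both lines, against 25.2% of all 14218 genes. A mean above 50 was found for 15 members in RR cells and 14 in RS cells. At a stricter level of 100 these numbers were 8 and 5. Among the genes at or below 50 in both lines were albumin, the most abundant plasma protein, its fetal counterpart alpha-fetoprotein, complement C3 and prothrombin. The A-I, A-II and C apolipoproteins were also at or below that level.

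Of the measured members, 9 were lower in RS cells by limma and none was higher. Among all genes 18.3% were lower and 21.0% higher, beside 18.8% of members that were lower. These shares are not matched for signal, since more of the members were dim and dim genes were seldom called. Above 50 in at least 1 line, 7 of 16 members were lower (43.8%) and none higher, against 23.3% and 26.6% of all such genes. At or below 50 in both lines, 2 of 32 members were lower (6.25%) and none higher, against 3.33% and 4.08% of all such genes. At an unadjusted p under 0.05, 11 members were lower and 2, Ttr and Mttp, were higher, beside 22.1% and 25.4% of all genes. With at least a 2-fold change 5 members were lower (10.4%) and none higher, where 2.49% of all genes were lower and 2.36% higher by that rule. All RS arrays lay below all RR arrays for 6 members, a pattern that 12.6% of all genes showed, and above all RR arrays for none, where 14.6% of all genes did so. The median log2 fold change was -0.02 over the members and 0.02 over all genes.

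**Figure D1:**
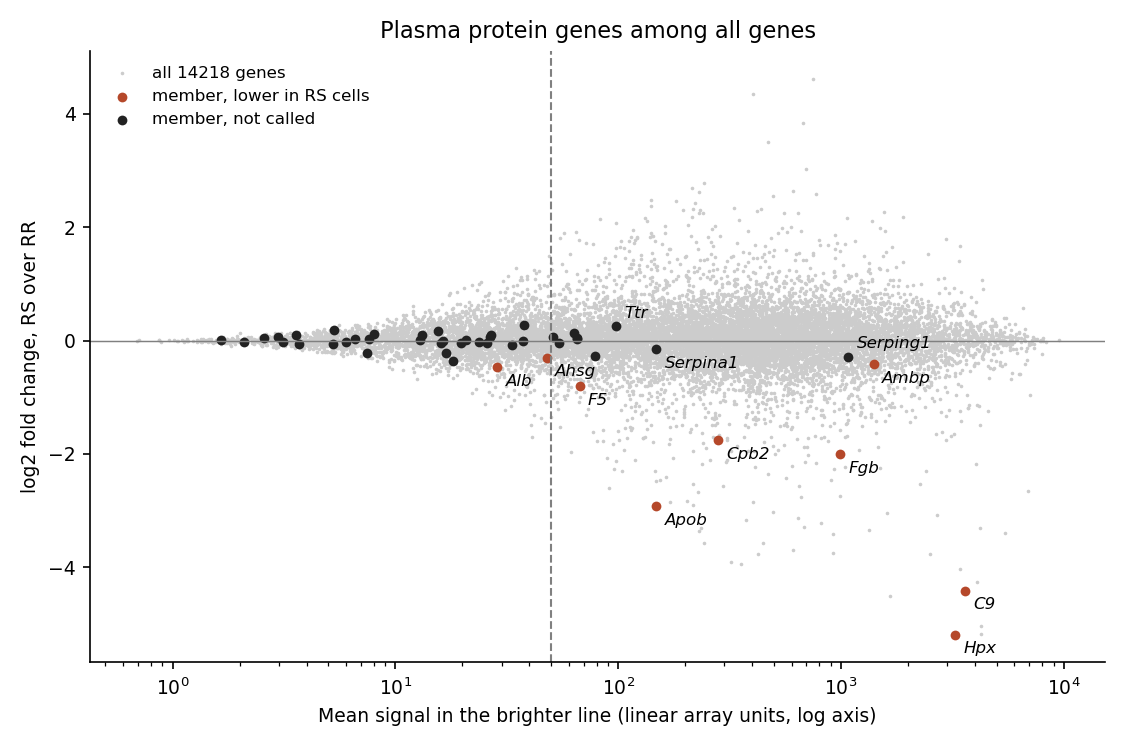
Log2 fold change of RS over RR cells (vertical axis) against the mean signal in the brighter line (horizontal log axis, array units) for 14218 genes in grey and the 48 measured plasma protein genes in red (called lower) or black (not called), with a dashed line at the background level of 50. Most members lie left of the dashed line near 0, and Hpx, C9, Apob, Fgb and Cpb2 lie at -1.76 or below.

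Of the 9 lower members, 7 had a mean above 50 in RR cells, and Apob and F5 did so in RR cells alone. The other lower members, Alb and Ahsg, were at or below 50 in both lines. In bulk RNA, fewer cells using a gene and less RNA per cell cannot be told apart.

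**Figure D2:**
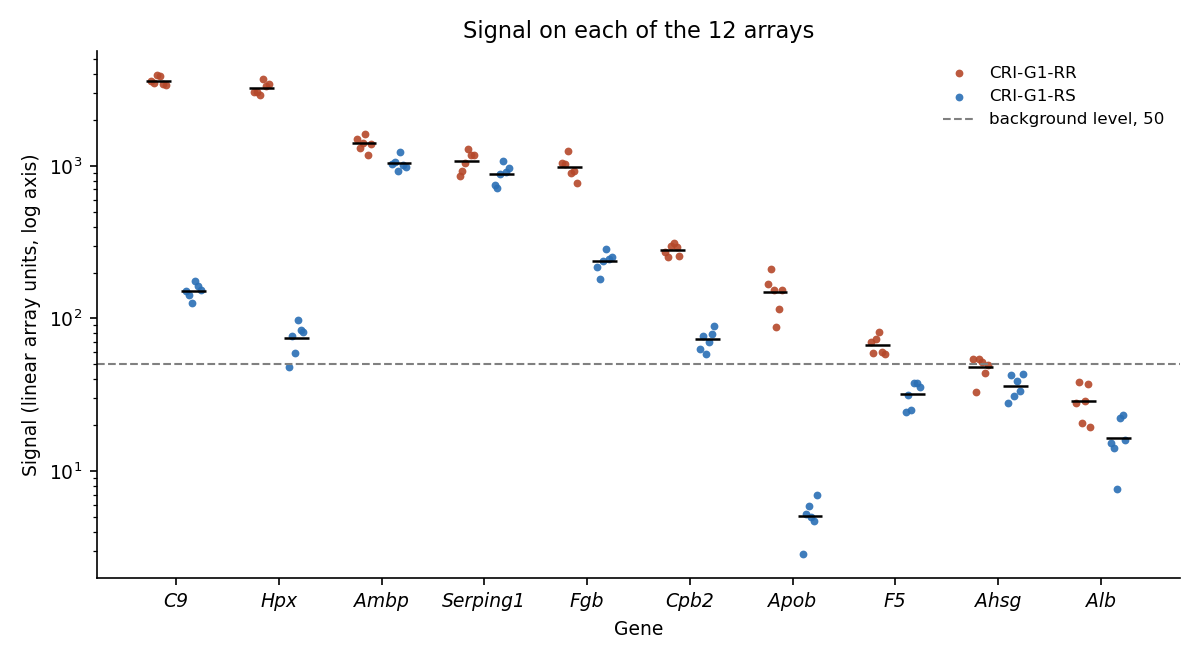
Signal on each array (vertical log axis, array units) for the 9 members called lower and Serping1, with RR cells in red and RS cells in blue, a point per array, a black bar at the mean of 6 arrays and a dashed line at the background level of 50. RS and RR points are separate for C9, Hpx, Fgb, Cpb2, Apob and F5 and overlap for Ambp, Serping1, Ahsg and Alb.

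The transport and acute-phase proteins had 4 of 10 measured members lower in RS cells, 1 of them at least 2-fold, and 6 at or below 50 in both lines. Hpx encodes hemopexin, which binds free haem in plasma and carries it to the liver. Its signal ran from 2901 to 3701 in RR cells with a median of 3196, and from 48.3 to 97.5 in RS cells with a median of 78.9. The lowest RR array was thus far above the highest RS array. The mean fell from 3250.2 ± 298 (SD, n = 6) to 74.5 ± 17.7 (SD, n = 6). Hpx had a fitted log2 fold change of -5.19 with a standard error of 0.12 (adjusted p = 1.39e-11 by limma), the largest fall among the 14218 genes. The RS mean was above the background level of 50 and below the 95th percentile of the odorant receptor probe sets in RS cells.

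Haptoglobin, which binds free haemoglobin and so acts beside hemopexin, was not called. The mean of Hp was 61.1 ± 11.6 (SD, n = 6) for RR and 65.2 ± 10.9 (SD, n = 6) for RS cells, and the 95% interval of its log2 fold change was -0.18 to 0.28. Both means are near background.

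Ambp encodes the precursor of alpha-1-microglobulin, a haem scavenger, and of bikunin, the light chain of the inter-alpha-trypsin inhibitors. The arrays gave 1184 to 1608 in RR cells with a median of 1398, and 929 to 1234 in RS cells with a median of 1025. The arrays of the lines overlapped. The mean fell from 1401 ± 148 (SD, n = 6) to 1041 ± 104 (SD, n = 6), which is -0.42 on the log2 scale with a standard error of 0.09 (adjusted p = 0.0025 by limma). Ambp thus kept most of its signal in RS cells.

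Transthyretin, the carrier of thyroid hormone and of retinol-binding protein, was above background in both lines. The mean of Ttr was 78.3 ± 10.96 (SD, n = 6) for RR and 98.2 ± 17.0 (SD, n = 6) for RS cells, and its log2 fold change of 0.25 did not pass the test (adjusted p = 0.102 by limma). It was the highest log2 fold change among the members above background in either line, with a 95% interval of 0.02 to 0.49.

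Albumin and fetuin-A were called lower at signals where the array hardly separates them from background. The means of Alb were 28.7 in RR cells and 16.4 in RS cells (log2 fold change -0.47, adjusted p = 0.0165 by limma), and its other probe set had 16.4 and 13.9 (-0.08, adjusted p = 0.830). The means of Ahsg, which encodes fetuin-A, an inhibitor of calcification, were 47.8 and 36.3 (-0.30, adjusted p = 0.0465). The arrays of the lines overlapped for both, and Ahsg lost its call in 9 of the 12 fits that left out 1 array (for example -0.25, adjusted p = 0.101, without RS replicate 1). Afp, Fetub, Orm1 and Rbp4 were at or below 50 in both lines and were not called.

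Among the complement genes 1 of 8 measured members was lower and 6 were at or below 50 in both lines. C9 encodes the last component of the terminal pathway, which polymerizes into the pore of the membrane attack complex. On the arrays it lay between 3369 and 3949 in RR cells with a median of 3524, and between 127 and 177 in RS cells with a median of 153. No array of one line came near those of the other. The mean fell from 3607 ± 240 (SD, n = 6) to 152 ± 17.2 (SD, n = 6), which is -4.41 on the log2 scale with a standard error of 0.07 (adjusted p = 8.88e-13 by limma). In RS cells C9 was still above the background level on every array.

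The other complement members, apart from the C1 inhibitor, were at or below 50 in both lines. C3, on which the complement pathways converge, had means of 24.2 in RR cells and 26.5 in RS cells. C5 and C6, which precede C9 in the terminal pathway, had 24.1 and 12.3 in RR cells and 26.9 and 12.9 in RS cells. The regulators C4bpa, Cfi and Vtn were in the same range, and none of these genes was called.

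Serping1 encodes the C1 inhibitor, which blocks the first proteases of the complement and contact systems. Its signal ran from 862 to 1290.3 in RR cells with a median of 1109, and from 711 to 1069 in RS cells with a median of 900.1. The arrays overlapped over most of their range. The means were 1079 ± 163 (SD, n = 6) and 882 ± 134 (SD, n = 6), and the log2 fold change of -0.28 (standard error 0.12) did not pass the test (adjusted p = 0.0922 by limma). In both lines the samples numbered 1 to 3 lay below those numbered 4 to 6. Those ranges were 862 to 1048 and 1170 to 1290.3 in RR cells, and 711 to 884 and 916 to 1069 in RS cells. Within the samples numbered 1 to 3 the log2 fold change was -0.29 (adjusted p = 0.174), and within those numbered 4 to 6 it was -0.28 (adjusted p = 0.108 by limma). Each of these fits had 3 arrays per line and so less power than the fit of all arrays. Leaving out RR replicate 1 or RS replicate 4 brought Serping1 past the threshold, with log2 fold changes of -0.34 and -0.35 (adjusted p = 0.0447 and 0.0400 by limma). A fit with the replicate number as a block also called it lower (adjusted p = 0.00694 by limma). The labels do not say that same-numbered samples were paired. The missing call in the main fit thus does not show that Serping1 was unchanged. Samples numbered 1 to 3 also lay below those numbered 4 to 6 for Hpx in both lines. They did so for C9 and Fgb in RS cells, and the order was reversed for Fgb in RR cells.

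The coagulation and fibrinolysis genes had 3 of 11 measured members lower, 2 of them at least 2-fold, and 6 at or below 50 in both lines. Fibrinogen, the precursor of the clot, is a hexamer of paired alpha, beta and gamma chains from the neighbouring genes Fga, Fgb and Fgg, which hepatocytes use together. On GRCr8 the 3 genes lie on chromosome 2, with 11.8 kb between Fgg and Fga and 14.4 kb between Fga and Fgb. Of these chains, Fgb was the one above the background level. Its signal ran from 773 to 1257 in RR cells with a median of 978, and from 182 to 283 in RS cells with a median of 241. The ranges did not overlap. The mean fell from 989 ± 164 (SD, n = 6) to 236 ± 34.0 (SD, n = 6), which is -1.998 on the log2 scale with a standard error of 0.12 (adjusted p = 8.45e-08 by limma). Fga had means of 23.7 and 23.4 and Fgg of 12.3 and 15.5, all below background, with log2 fold changes of -0.03 and 0.17.

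The upstream sequences of the fibrinogen genes are shown because the genes are neighbours, their products form 1 protein, and 1 probe set among them, of Fgb, was called. Each line gives up to 250 bases before the annotated gene on GRCr8, from RefSeq, read 5′ to 3′ on the gene's strand. The windows are chr2:170700876-170701125 on the minus strand for Fgb, chr2:170671919-170672168 on the plus strand for Fga, the first of its annotated starts, and chr2:170652833-170652928 on the plus strand for Fgg. The window for Fgg has 96 bases, since the start in the promoter table lies within the annotated gene and the 154 bases inside the gene are left out. Capitals mark matches on either strand to GTTAAT (part of the Hnf1 site), TTGCNNAA (C/EBP), TGTTTAC or TGTTTGC (Foxa), TTCCNGGAA (Stat3) or TATAAA.
Fgb: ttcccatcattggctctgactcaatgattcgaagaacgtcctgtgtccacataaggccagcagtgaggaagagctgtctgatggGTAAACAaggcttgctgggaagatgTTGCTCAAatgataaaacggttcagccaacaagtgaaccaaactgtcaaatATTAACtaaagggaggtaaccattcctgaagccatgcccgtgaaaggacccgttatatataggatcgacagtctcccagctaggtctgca
Fga: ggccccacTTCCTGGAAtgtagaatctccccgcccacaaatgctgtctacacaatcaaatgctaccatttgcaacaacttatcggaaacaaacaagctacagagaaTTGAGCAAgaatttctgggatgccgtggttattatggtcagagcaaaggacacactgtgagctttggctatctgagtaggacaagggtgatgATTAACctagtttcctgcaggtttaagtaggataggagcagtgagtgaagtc
Fgg: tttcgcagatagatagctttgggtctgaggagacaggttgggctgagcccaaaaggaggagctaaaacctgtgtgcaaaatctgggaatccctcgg
Fgb held 1 match each to the part of the Hnf1 site, the C/EBP motif and TGTTTAC, and 1 to the looser Stat3 motif TTCNNNGAA, which is left in lower case. Fga, which was below background, held the part of the Hnf1 site, the C/EBP motif and TTCCNGGAA. The bases shown for Fgg held none of these motifs, and its match to TATAAA lies among the bases left out.

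The fall of Fgb rests on 1 of its 3 probe sets. The other probe sets had means of 34.7 and 24.0 in RR cells and 33.0 and 26.2 in RS cells, with log2 fold changes of -0.04 and 0.12 (adjusted p = 0.853 and 0.730 by limma). They were below background in both lines. Averaged over the probe sets, Fgb had a log2 fold change of -0.64.

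**Figure D3:**
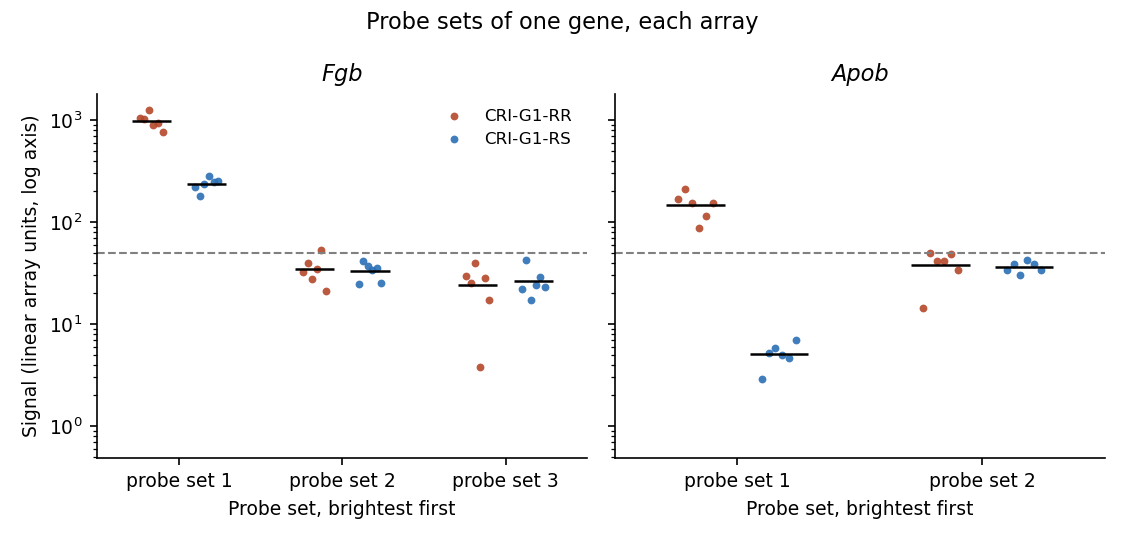
Signal on each array (vertical log axis, array units) of each probe set of Fgb and Apob, brightest first, with RR cells in red, RS cells in blue, black bars at the mean of 6 arrays and a dashed line at 50. The brightest probe set of each gene separates the lines, and the others lie near or below 50 in both lines.

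Cpb2 encodes carboxypeptidase B2, which, once activated by thrombin, slows the dissolution of fibrin. Cpb2 signals ran from 253 to 312 in RR cells with a median of 283, and from 58.7 to 89.2 in RS cells with a median of 73.4. The arrays did not overlap. The mean fell from 281 ± 23.6 (SD, n = 6) to 72.8 ± 11.2 (SD, n = 6). Cpb2 had a fitted log2 fold change of -1.76 with a standard error of 0.09 (adjusted p = 1.34e-08 by limma). The RS level was within the range of the odorant receptor probe sets.

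F5, the cofactor that speeds thrombin formation, fell from 67.1 ± 9.40 (SD, n = 6) to a level below background, 32.1 ± 6.12 (SD, n = 6). The arrays did not overlap (log2 fold change -0.81, adjusted p = 1.99e-05 by limma). The RR mean was 1.34 times the level of 50, which is a lower bound of the fold between the lines. It was close to the 95th percentile of the odorant receptor probe sets in RR cells, 66.01. Plasminogen, the precursor of the protease that dissolves clots, and heparin cofactor II were just above 50 in both lines. Plg had 54.3 and 53.8 and Serpind1 55.4 and 63.3, and neither was called. F2, F9, F10 and Serpinc1 (antithrombin) were at or below 50 in both lines with log2 fold changes of -0.05 to 0.03.

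Apolipoproteins and the genes of lipoprotein assembly had 1 of 12 measured members lower and 10 at or below 50 in both lines. Apob encodes apolipoprotein B, the structural protein of chylomicrons and of very low density lipoprotein. Apob signals ran from 87.5 to 212 in RR cells with a median of 153, and from 2.87 to 6.94 in RS cells with a median of 5.14. Every RR array was above background and every RS array far below it. The mean was 148 ± 43.1 (SD, n = 6) for RR and 5.11 ± 1.35 (SD, n = 6) for RS cells. The RR mean was 2.96 times the background level, which is a lower bound of the fold between the lines (log2 fold change -2.93, standard error 0.15, adjusted p = 1.84e-08 by limma). The size of the fitted change depends on the value added before the logarithm, with -4.60 when 1 was added and -1.60 when 64 was added. The second probe set of Apob had means of 38.3 and 36.3 (log2 fold change -0.03, adjusted p = 0.923).

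The other members of this role were not called. Mttp encodes the microsomal transfer protein that loads lipid onto apolipoprotein B, and it had 2.63 in RR cells and 5.31 in RS cells, both far below background (log2 fold change 0.19, adjusted p = 0.0583 by limma). With 1 added in place of 16 its log2 fold change passed the threshold, and it was then the 1 member called higher. Apoe, which directs remnant particles to their receptors, had 64.1 ± 15.9 (SD, n = 6) and 65.7 ± 2.33 (SD, n = 6), with a 95% interval of its log2 fold change from -0.19 to 0.24. Apoa1, Apoa4 and Apoc3 form a cluster on chromosome 8, and Apoc1 and Apoc2 lie beside Apoe on chromosome 1. These cluster members other than Apoe, and Apoa2, Apoh, Apom and Lcat, were at or below 50 in both lines.

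No protease inhibitor or inter-alpha-trypsin inhibitor heavy chain was called among 7 measured. Serpina1, alpha-1-antitrypsin, the main plasma inhibitor of neutrophil elastase, was the one above 100. Its signal ran from 113 to 175 in RR cells with a median of 148, and from 99.98 to 194 in RS cells with a median of 129. The ranges overlapped almost fully, and the 95% interval of the log2 fold change was -0.42 to 0.11. Itih1 had 78.4 and 63.7 (log2 fold change -0.27, adjusted p = 0.0984 by limma), and it was called without RS replicate 5 (-0.33, adjusted p = 0.0411). Itih4 had 47.6 and 51.2. Itih2, Itih3, A2m and Serpinf1 were at or below 50 in both lines.

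**Figure D4:**
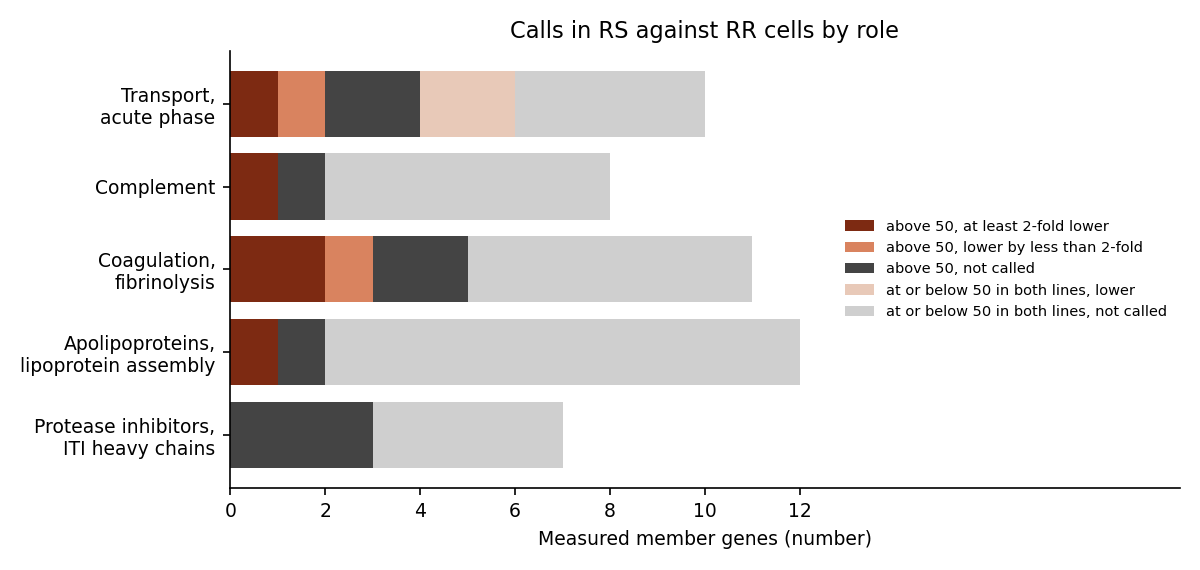
Number of measured members (horizontal axis) in each role by call in RS against RR cells. Dark red and orange are members above a signal of 50 in at least 1 line that were lower, black those not called, and pale red and grey members at or below 50 in both lines. Members at or below 50 make up the larger part of each role, and at most 2 members of a role were at least 2-fold lower.

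Genes of the same chromosomal cluster as a member gave mixed results. Serpina1 lies 102 kb from Serpina10, the inhibitor of factor Xa that acts with protein Z, and 76.0 kb from Serpina6, corticosteroid-binding globulin. Serpina6 fell from 4175 ± 778 (SD, n = 6) to 1798 ± 160 (SD, n = 6), with a fitted log2 fold change of -1.16 (adjusted p = 9.52e-06 by limma). Serpina10 fell from 366 ± 87.2 (SD, n = 6) to 102 ± 14.3 (SD, n = 6), with a fitted log2 fold change of -1.69 (adjusted p = 1.21e-06 by limma). Serpina1 and the nearby Serpina4, Serpina5 and Serpina3n did not pass the test, with log2 fold changes of -0.15, 0.06, 0.05 and 0.13. Cd55, which protects cells from complement, lies 189 kb from C4bpa and fell (log2 fold change -0.62, adjusted p = 3.27e-06), while C4bpb beside it had 0.02. Hrg, histidine-rich glycoprotein, lies 52.0 kb from Ahsg and rose (log2 fold change 0.63, adjusted p = 0.0105), with means of 53.5 and 92.9.

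The 50 nearest genes whose mean signal reached 100 showed how the surroundings of each lower member moved. Around Hpx on chromosome 1 their median log2 fold change was -0.42, with 32 lower and 1 higher and a lowest value of -1.24. Around C9 on chromosome 2 the median was -0.20, with 25 lower and 8 higher. The medians were 0.12 around Fgb, 0.10 around Apob, 0.17 around Cpb2, 0.20 around Ambp and 0.04 around F5. Around Alb it was 0.58, with 38 higher and 5 lower, and around Ahsg 0.30, with 28 higher and 3 lower. Among all genes above 50 in either line, a looser limit than that for the neighbours, 23.3% were lower and 26.6% higher. The medians of the neighbours were thus below 0 for Hpx and C9 and above 0 for the other lower members. Over the 20 nearest genes the median around F5 was -0.05, and the other signs held. With 50 nearest genes of any signal the medians were -0.08 for Hpx and -0.09 for C9. Lowered surroundings were not particular to members that fell. By the first rule the median was -0.29 around C3 (30 lower, 5 higher) and -0.17 around F2 (24 lower, 4 higher). Around C6, whose nearest genes include C9, it was -0.22 (26 lower, 7 higher). None of these members was called, and other members not called had medians above 0, such as Serpind1 with 0.29. Of the genes near C9, the largest fall was that of Selenop, the selenium carrier of plasma, 3.09 Mb away, with a log2 fold change of -3.76.

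**Figure D5:**
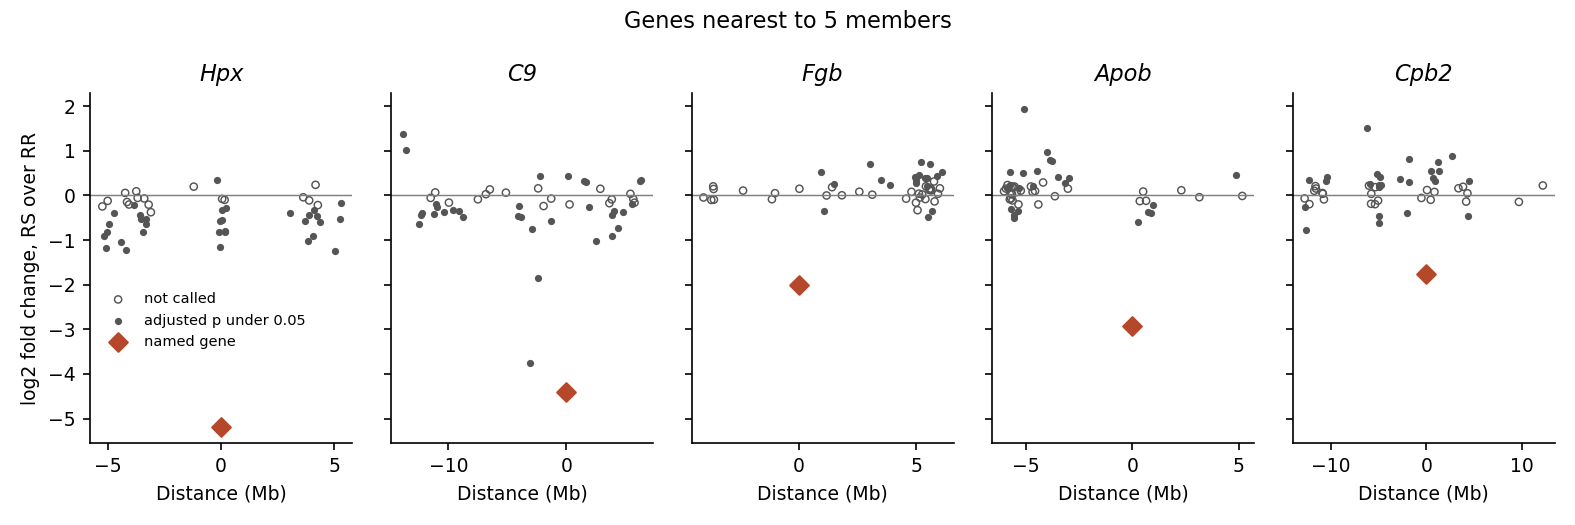
Log2 fold change of RS over RR cells (vertical axis) for the 50 nearest genes whose mean signal reached 100 around each of 5 members, by distance in Mb on GRCr8 (horizontal axis), with filled points at an adjusted p under 0.05 and a red diamond for the member. No neighbour of Hpx, Fgb, Apob or Cpb2 reached the fall of that member, and Selenop at -3.76 came close to C9.

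Motifs of liver factors were found in promoters of members with and without a signal. RefSeq promoters of 250 bases before to 50 after the start on GRCr8 were found for 38 of the 51 members and for 27457 genes in all. TTGCNNAA, read on both strands, was present for 16 members (42.1%) against 11.4% of all genes, GTTAAT for 11 (28.9%) against 8.12%, and TGTTTGC for 6 (15.8%) against 5.30%. The 10 of these members above background in at least 1 line held TTGCNNAA in 3 promoters (30.0%) and GTTAAT in 3 (30.0%). The 26 measured members at or below background held them in 12 (46.2%) and 8 (30.8%). AAAGTCCA, a core of Hnf4 sites contained in the longer CAAAGTCCA, was found for 1 member (2.63%) against 1.46% of all genes, and the longer form for none against 0.444%. TGTTTAC was found for 2 members (5.26%, all genes 4.13%), TTCNNNGAA for 6 (15.8%, all genes 9.39%), TTCCNGGAA, which is contained in it, for 1 (2.63%, all genes 1.39%), and TATAAA for 8 (21.1%, all genes 15.3%).

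The window before Hpx is shown because this gene fell most. It spans chr1:169352156-169352405 on the minus strand of GRCr8, from RefSeq, and capitals mark its match to the C/EBP motif. The window before Alb, chr14:17907044-17907229 on the minus strand, with 186 bases since 64 inside the annotated gene are left out, is shown beside it as that of a gene with matches to motifs of 3 factor families and a signal below background.
Hpx: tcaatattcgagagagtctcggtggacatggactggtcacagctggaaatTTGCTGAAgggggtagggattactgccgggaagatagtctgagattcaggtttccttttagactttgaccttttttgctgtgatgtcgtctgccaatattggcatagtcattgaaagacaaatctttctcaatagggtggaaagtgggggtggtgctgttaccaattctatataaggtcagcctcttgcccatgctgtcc
Alb: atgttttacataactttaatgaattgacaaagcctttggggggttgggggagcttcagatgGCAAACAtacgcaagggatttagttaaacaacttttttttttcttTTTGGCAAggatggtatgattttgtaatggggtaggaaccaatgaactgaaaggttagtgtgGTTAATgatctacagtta
The promoters of Hp, C9, Cfb, Apoa1, Apoa2, Apob, Apoc3, Serpind1, Serping1, Cpb2, A2m, Fetub and Mttp were not analysed here.

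Of 24 measured regulators of liver genes, 6 were lower and 2 higher. This count, and those of the lists that follow, stand beside the 18.3% of all genes that were lower and the 21.0% that were higher, and no list was tested as a whole. Nr1h4 (FXR, the bile acid receptor) had a log2 fold change of -3.94, with means of 357 ± 35.5 (SD, n = 6) for RR and 8.39 ± 2.92 (SD, n = 6) for RS cells. Hnf4a had -3.13, with 643 ± 53.5 (SD, n = 6) and 61.1 ± 14.3 (SD, n = 6). Onecut1 had -0.77 and Cebpb -0.59, while Prox1 (0.29) and Dbp (0.28) rose. Foxa2, with means of 2503 and 2320, and Stat3, with 2063 and 1823, were not called (adjusted p = 0.592 and 0.131 by limma).

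The other genes of the same pathways changed in both directions. Of 21 other complement genes 7 were lower and 1 higher. C1r and C1s, the proteases of the first component, had log2 fold changes of -2.84 and -1.32, C1qa of -0.84 and Clu (clusterin) of -0.78, and the receptor C5ar1 rose by 0.56 with both means below 50. Of 23 other coagulation and fibrinolysis genes 6 were lower and 3 higher. Plat, the tissue plasminogen activator, had -3.41, Serpina10 -1.69, Vkorc1, the target of warfarin, -1.49 and Tfpi -0.76, while Pros1 (protein S) rose by 1.13, Hrg by 0.63 and Lman1, a cargo receptor for factors V and VIII, by 0.37.

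Of 22 other lipoprotein genes 5 were lower and 4 higher. Apobec1, which edits the Apob transcript, had a log2 fold change of -1.49 with a signal below 50 in both lines, the lipoprotein receptors Scarb1 and Lrp1 had -1.05 and -0.84, and the lipase Lipc had -0.55. Abca1 (0.48), Abcg1 (0.43), Lpl (0.29) and Sar1b (0.25) rose. Of 22 other liver plasma proteins 3 were lower and 4 higher. Selenop had -3.76, Gc, the vitamin D carrier, -1.23, with means of 4564 and 1892, and Serpina6 -1.16. Crp (1.14), A1bg (0.75), Angptl6 (0.72) and Pon1 (0.55) rose, and of these Angptl6 alone had a mean above 50. Of 20 hepatocyte enzymes and receptors 4 were lower, led by Asgr1 (-1.69), Slc10a1 (-1.05), Fah (-0.63) and Cyp2e1 (-0.33), and 3 were higher, Hpd (2.48), Tdo2 (1.06) and Arg1 (1.08). Hpd, an enzyme of tyrosine breakdown, and Arg1, of the urea cycle, thus moved against Hpx and C9. Of the lower genes, Asgr1 and Slc10a1 had means at or below 50 in both lines.

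Both lines had means above 50 for all 8 endocrine markers and for 5 of 6 measured beta cell markers. Ins1 had means of 7118 and 6495 and Gcg (glucagon) of 7329 and 6589, and neither was called. The paper, with other processing of the arrays and by quantitative PCR, reported Ins1 as higher in RS cells. Of 6 measured beta cell markers, Ins2 (1.30), Nkx6-1 (1.31) and Pdx1 (1.09) were higher and Slc2a2 (-0.51) was lower, and of 8 endocrine markers 4 were higher and 1 lower. Of 5 markers of other islet cells 1 was higher. All of these but Gcg, 4 genes, were at or below 50 in both lines. The 9 measured hepatocyte markers are all among the enzymes and receptors above, and their summed signal ran from 227 to 331 in RR cells and from 316 to 407 in RS cells, with 2 higher, 3 lower and 6 at or below 50 in both lines. In such a sum the brightest probe sets weigh most, so it does not stand for each marker. Tat, a defining enzyme of hepatocytes, was near 0 with means of 3.44 and 3.75. Macrophage and acinar markers had none of 8 and none of 7 called, and of 7 fibroblast markers Pdgfra (0.74) was higher. The summed signal of 9 enterocyte markers ran from 7985 to 9580.1 in RR cells and from 1673 to 1931 in RS cells, with 5 lower, among them Vil1 (-3.74), Lgals4 (-3.40), Cdh17 (-3.34) and Si (-1.56), and Cdx2 (0.59) higher. Its part in the falls of Hpx, C9, Fgb, Apob and Cpb2 was not tested.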

How the data were processed

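RNA from CRI-G1-RR (n = 6) and CRI-G1-RS cells (n = 6) was measured on Affymetrix Rat 230 2.0 arrays. The deposited values are linear signal intensities per probe set, which the authors made with GCOS 1.4 per the submitters' processing notes. After trimming 2% at each end, the mean of every array lay between 250.068 and 250.075, which shows that a common scale had been set. These linear values are not the log2 values of robust multi-chip averaging that the study's methods name. The settings written for log2 values were therefore replaced by those for linear ones: quantile normalization, log2(signal + 16), and limma 3.58.1 (R 4.3.3) with the line as its 1 term, adjusted over all 31099 probe sets. Tables were made in Python 3.11.15. Means and SDs are of the deposited signals. Arrays give no read depth, so their number limits the precision, and p-values cover only the spread between these samples.

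Symbols are from the platform annotation, in which 20832 probe sets have 1 symbol, 436 have several and 9831 have none. Gene order and promoters are from RefSeq on GRCr8. All members are accounted for. A member is described in full with an adjusted p under 0.05 and at least a 2-fold change, or with a mean of at least 500 in either line, and up to 4 genes of each other list are named in each direction. Members and lists were chosen with earlier results of these data known. A fixed background of 50 was used since fewer than 20 odorant receptor probe sets were found. The fit was tested on simulated data. The alternatives were other scalings, added values of 1 and 64, a low-signal filter, an intensity trend, other probe set rules, the replicate number as a block, and leaving out arrays.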

Additional observations from a re-analysis of the deposited data

How the results depend on the processing

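The 7 members described in full were recomputed 180 times over 26 settings, of which 176 kept the direction and the side of the threshold, 1 lost the call, 3 gained it and none reversed. The log2 fold change ranged from -5.46 to -4.58 for Hpx, from -4.54 to -4.07 for C9, from -2.31 to -0.64 for Fgb, from -4.60 to -1.48 for Apob and from -1.96 to -1.35 for Cpb2. Ambp lost its call with the samples numbered 4 to 6 alone (-0.34, adjusted p = 0.183 by limma). The count of members lower in RS cells ran from 6 to 9 over the alternatives, which did not all cover the same members. With the low-signal filter it was 6 of 14, where 2671 of 10376 genes were lower. With the samples numbered 4 to 6 alone it was 6 of 48, where 1725 of 14218 genes were lower. Without Alb, Fgb and Apob, an alternative given below, it was 6 of 45. The count of members higher was 1 (Mttp) with 1 added before the logarithm, and 0 to 1 when single arrays were left out (Mttp without RR replicate 2, RS replicate 1 or RS replicate 2). In alternatives chosen after seeing the data, 3 members were at least 2-fold lower once Alb, Fgb and Apob, whose probe sets disagree, were left out, and 6 members in RS cells were above the 95th percentile of the odorant receptor probe sets. Above a signal of 100 there were 8 members in RR cells and 5 in RS cells.

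The sample labels say that passages were taken in pairs, but not that the number gives the pair. Same-numbered samples deviated together by correlations of -0.04 to 0.21, so the numbers were not taken to pair them. With the replicate block, 9 members were lower, and Serping1 alone of the 7 changed its call (-0.28, adjusted p = 0.00694). Over all genes, 2979 were higher, but 1565 with the samples numbered 1 to 3 alone, and 336 were at least 2-fold higher, but 174 with 64 added. Apart from Alb and Ahsg, the 32 members at or below 50 in both lines were not called. Of all genes at such signals, 4.08% were called higher and 3.33% lower. A missing call there thus does not show that a difference was absent. The causes were not tested.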
